A study of Mus musculus with 12 samples.

Results

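A set of 10 imprinted genes that lie outside the Igf2 and Dlk1 domains were followed across 3 Aebp1-knockout clones of NIH3T3 cells and their parental line. They were taken by symbol, and all 10 were among the 48795 genes of the deposited table. They are Peg3, Usp29 and Zim1 of the Peg3 domain, Snrpn, Ndn and Ube3a of the Snrpn-Ube3a domain, and Mest, Plagl1, Cdkn1c and Peg10 of 4 further domains. The set was selected on levels of these genes in the 4 lines that were already known. Differences between lines are therefore given for the 10 genes as a description, with values, fold changes and standard errors (SE) and with no test.

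NIH3T3 is an established line of mouse embryonic fibroblasts. The groups were the AEBP1 KO clones F5, G5 and H7, each with libraries at passages 7, 8 and 9, and the wild-type parental line, with libraries at passages 6, 7 and 8, which makes 3 libraries per line and 12 in all. All cells grew in DMEM/F12 with fetal bovine serum, and ribosome-depleted total RNA was sequenced. Each knockout line is 1 clone, the parental line was not cloned, and the loss of Aebp1 and the derivation as a clone cannot be told apart in any of the 3. The labels do not say whether the passages of a line were separate cultures, and a p-value here speaks only for the spread between libraries, which may be technical.

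A library held between 22088714 and 31329755 counts. Aebp1, the targeted gene, averaged 193 ± 19.9 counts per 1000000 (CPM) in F5, 128 ± 8.46 CPM in G5 and 147 ± 14.4 CPM in H7, against 553 ± 76.6 in the parental line (SD, n = 3 each), and it was lower in all 9 knockout libraries. All 8 fibroblast markers had counts in every line, with a summed level of 22860 to 26590 CPM in the clones and 24250 to 27960 CPM in the parental line. Epithelial markers summed to 0.516 to 0.876 CPM in H7, nearly all from Cdh1 (57 counts), against at most 0.176 CPM in any other library, with Epcam and Cldn7 at 0 in all. Endothelial markers summed to 0.516 to 0.836 CPM in H7 and at most 0.492 CPM elsewhere, with Kdr and Tie1 at 0 in all, and blood markers to at most 5.30 CPM. Neuronal markers summed to 42.5 to 58.6 CPM in H7, 15.7 to 19.7 CPM in F5, 12.4 to 14.7 CPM in G5 and 20.4 to 25.6 CPM in the parental line. The neuronal counts came from Snap25 and Map2, while Rbfox3 and Syt1 had at most 2 counts in any line. The part of these differences in the values of H7 below was not tested.

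An imprinted gene is expressed mainly or only from the allele inherited from one parent. The allele to be silenced is marked in the germ line by DNA methylation at an imprinting control region, often a promoter rich in CpG dinucleotides, and the mark is kept through cell division with the help of the zinc-finger proteins ZFP57 and ZFP445, their partner TRIM28 and the methyltransferase DNMT1. Peg3, Usp29, Snrpn, Ndn, Mest, Plagl1 and Peg10 are known as paternally expressed genes, Zim1 and Cdkn1c as maternally expressed genes, and Ube3a as a gene expressed from the maternal allele in neurons and from both alleles in most other cells. The counts do not separate alleles.

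Of the 10 genes, 7 lie on chromosome 7, 2 on chromosome 6 and 1 on chromosome 10. The promoters of Peg3, Snrpn, Mest and Ndn are printed here because these genes showed the line differences described below, and because the first 3 lie at or next to the control regions of their domains. Each run is the RefSeq sequence of assembly GRCm38.p6 from 250 bases before to 50 bases after a transcription start, 5′ to 3′ on the strand of the gene, with CpG dinucleotides in capitals.

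Peg3: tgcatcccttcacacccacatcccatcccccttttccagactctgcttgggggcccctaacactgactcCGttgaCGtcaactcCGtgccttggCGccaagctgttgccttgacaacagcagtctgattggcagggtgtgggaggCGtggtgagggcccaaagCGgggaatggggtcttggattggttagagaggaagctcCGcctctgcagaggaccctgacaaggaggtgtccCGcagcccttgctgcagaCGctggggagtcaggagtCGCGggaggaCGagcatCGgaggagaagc

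Snrpn: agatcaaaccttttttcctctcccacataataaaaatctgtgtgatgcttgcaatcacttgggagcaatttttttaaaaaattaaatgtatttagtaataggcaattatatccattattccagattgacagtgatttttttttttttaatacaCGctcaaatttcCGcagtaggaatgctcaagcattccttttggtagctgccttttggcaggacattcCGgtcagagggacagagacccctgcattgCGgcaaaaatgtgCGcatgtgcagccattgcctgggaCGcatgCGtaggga

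Mest: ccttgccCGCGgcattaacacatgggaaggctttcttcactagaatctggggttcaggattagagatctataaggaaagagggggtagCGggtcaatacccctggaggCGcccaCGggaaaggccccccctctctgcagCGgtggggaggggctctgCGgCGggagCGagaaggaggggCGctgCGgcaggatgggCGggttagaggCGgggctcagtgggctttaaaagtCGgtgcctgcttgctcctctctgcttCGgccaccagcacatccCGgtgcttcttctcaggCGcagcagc

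Ndn: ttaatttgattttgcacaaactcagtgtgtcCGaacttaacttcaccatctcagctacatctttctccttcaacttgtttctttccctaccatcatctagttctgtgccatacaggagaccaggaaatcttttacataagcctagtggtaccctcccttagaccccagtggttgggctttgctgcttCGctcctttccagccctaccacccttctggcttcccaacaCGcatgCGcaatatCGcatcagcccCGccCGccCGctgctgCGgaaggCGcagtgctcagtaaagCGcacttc

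The Peg3 window is chr7:6730370-6730669 on the minus strand and holds 13 CpG. The Snrpn window is chr7:60005150-60005449 on the minus strand and holds 7. It is the entry closest to Ube3a among 4 listed for Snrpn. The Mest window is chr6:30737800-30738099 on the plus strand and holds 17, and the Ndn window is chr7:62348027-62348326 on the plus strand and holds 11. The median over 32851 promoters of the same length was 7.

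Peg3 and Usp29 start back to back, and their windows share 263 bases. The letters TGCCGC, the core of the motif known to be bound by ZFP57, were searched on both strands: they were found 2 times in the Mest window, 1 time in the Snrpn window and not in the Peg3 or Ndn windows, and 11.6% of all promoters held them. The Zim1 and Plagl1 windows held them 1 time each, with 20 and 26 CpG. Of the entries not printed, that of Mest at chr6:30733256-30733555 held 8 CpG and no TGCCGC. The other Snrpn entries held 2, 3 and 4 CpG and no TGCCGC. The Ube3a window, with 29 CpG, held the letters GCCATNTT, the core of the YY1 motif, which 6.05% of all promoters held. Of the 10 genes, 8 matched an entry of the promoter table.

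Ube3a was the most abundant of the 10 genes per transcript length, at 67.5 to 96.0 transcripts per 1000000 (TPM) over the 12 libraries. The TPM level was 13.01 to 36.1 for Plagl1, 9.04 to 16.2 for Ndn and 3.84 to 27.2 for Peg3. Snrpn reached at most 5.71 TPM, Mest 1.96 TPM, Usp29 1.67 TPM and Zim1 0.0614 TPM. Cdkn1c and Peg10 were listed at 0 in all 12 libraries.

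In bulk RNA, fewer cells that express a gene and less RNA per cell cannot be told apart, and this holds for all levels below. Levels are in CPM scaled by edgeR's trimmed mean of M-values (TMM), and fold changes of the 10 genes are log2 values fitted by edgeR, clone over parental.

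Peg3 encodes a large zinc-finger protein and is the most expressed gene of its domain in these cells. Its level was 43.6, 44.8 and 51.5 CPM in the F5 libraries, 65.5, 83.6 and 92.1 CPM in G5 and 17.3, 23.0 and 23.4 CPM in H7, against 56.9, 119.8 and 75.8 CPM in the parental libraries. All F5 and all H7 libraries lay below every parental library, while those of G5 fell within the parental range. The means were 46.7 ± 4.26 CPM in F5, 80.4 ± 13.6 CPM in G5 and 21.3 ± 3.41 CPM in H7, against 84.2 ± 32.3 in the parental line (SD, n = 3 each). H7 thus held 25.3% of the parental level and F5 55.5%.

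The fitted log2 fold changes of Peg3 were −0.85 (SE 0.23) in F5, −0.07 (SE 0.23) in G5 and −1.99 (SE 0.24) in H7. The parental library of passage 7 held the highest Peg3 level. Without it, the log2 fold changes were −0.51 in F5, 0.28 in G5 and −1.64 in H7, so that the order of the 3 clones stayed and the sign in G5 turned. On TPM values the sign in G5 turned as well, to 0.05 with either pseudocount. Over the 12 libraries the order of the line means was parental, G5, F5 and H7, and the parental and G5 libraries overlapped while every other pair of neighbours was apart.

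Usp29, which starts at the shared Peg3 promoter region and encodes a ubiquitin-specific protease, was expressed at a far lower level. It had 0.728, 1.29 and 0.810 CPM in F5, 1.52, 2.09 and 2.47 CPM in G5 and 0.0796, 0.0737 and 0.197 CPM in H7, against 0.895, 1.54 and 0.923 CPM in the parental libraries. The 3 H7 libraries, with 9 counts between them against 80 in the parental line, lay below all others. The G5 libraries lay at or above the upper end of the parental range and overlapped it. The log2 fold changes were −0.24 (SE 0.34) in F5, 0.84 (SE 0.33) in G5 and −3.22 (SE 0.46) in H7.

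Without the parental library of passage 7 the Usp29 changes were 0.06 in F5, 1.15 in G5 and −2.92 in H7, and the F5 value was −0.55 without the F5 library of passage 8. For H7 the fitted value depended on the scale, at −2.07 on log2(TPM + 0.1) and −0.58 on log2(TPM + 1), and the mean level there was below both pseudocounts. Zim1, a zinc-finger gene of the same domain, had 2 counts in F5, 4 in G5 and 0 in H7, against 9 in the parental line. H7 was at least 3.31-fold lower than the parental line at the limit of 3 counts over the summed H7 libraries, which is 0.0386 CPM. This limit takes the 9 parental counts as exact, so the true bound is lower. Zim1 did not pass the filter on low counts.

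The genes around the Peg3 domain were lower most often in F5. Within 2000000 bases on either side, 42 further genes were tested. Their median log2 fold change was −0.39 in F5, −0.26 in G5 and −0.19 in H7, and 16 of them fell in F5, 3 in G5 and 5 in H7, with none called higher, beside 7.37%, 6.56% and 9.92% of all genes called lower in F5, G5 and H7. The G5 and H7 counts are thus near the share of all genes. The median of all 1127 tested genes of chromosome 7 was −0.20 in F5, −0.08 in G5 and −0.03 in H7. Peg3 in H7 lay further from the parental line than these medians, and with the chromosome median subtracted the Peg3 values were −0.66 in F5, 0.01 in G5 and −1.96 in H7.

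**Figure D1:**
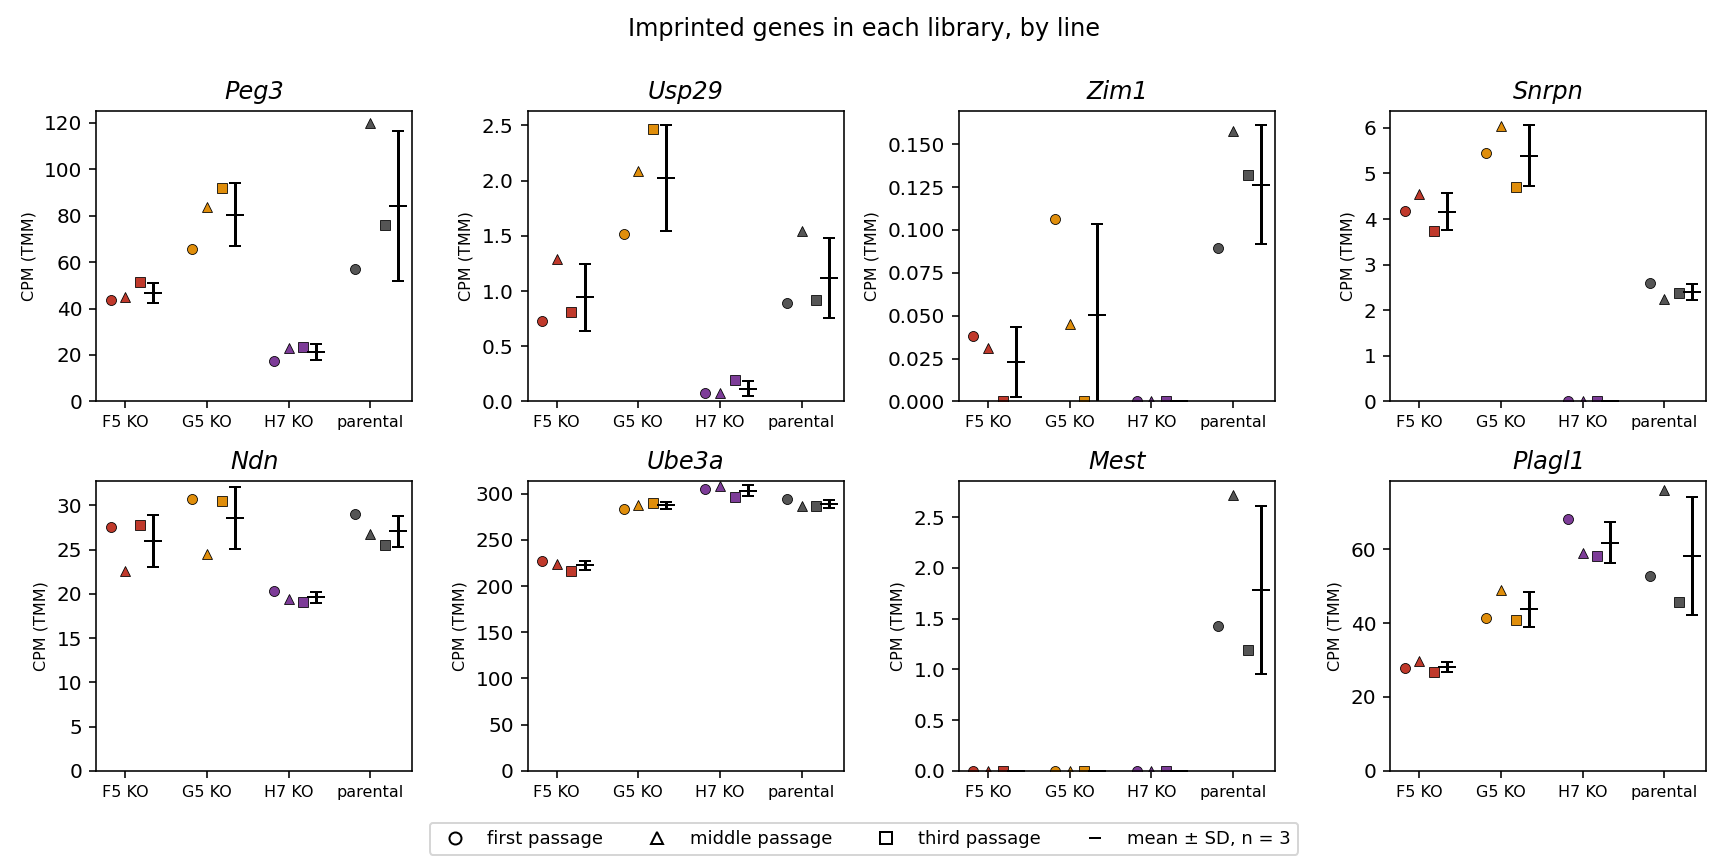
CPM of 8 imprinted genes in each library, from left to right F5, G5, H7 and the parental line, with 1 symbol per place in the order of passages and a bar for the mean ± SD of 3 libraries (each vertical axis starts at 0). Snrpn was at 0 in the 3 H7 libraries and Mest in all 9 knockout libraries, and Peg3 and Usp29 were lowest in H7.

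Snrpn encodes a small nuclear ribonucleoprotein of the spliceosome, and its promoter lies in the control region of the Snrpn-Ube3a domain. It had 4.18, 4.55 and 3.74 CPM in F5, 5.44, 6.03 and 4.70 CPM in G5 and 0 counts in each H7 library, against 2.59, 2.25 and 2.37 CPM in the parental libraries. No groups overlapped: all F5 and G5 libraries lay above the parental ones and all H7 libraries below. The log2 fold changes were 0.79 (SE 0.16) in F5 and 1.16 (SE 0.16) in G5. Against 169 counts in the parental line, H7 was at least 62.1-fold lower at the limit of 3 counts over its libraries.

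The Snrpn locus is annotated as overlapping genes on 1 strand, between which the counting could split reads: Snrpn, Gm38393 and Snurf, which was listed at 0 throughout. Gm38393 had 269 counts in F5, 394 in G5 and 0 in H7, against 186 in the parental line. Snrpn and Gm38393 together came to 7.35 ± 0.952 CPM in F5, 10.7 ± 1.99 CPM in G5 and 0 CPM in H7, against 5.03 ± 0.149 in the parental line (SD, n = 3 each). The sum was thus 1.46 times the parental level in F5 and 2.13 times in G5, and at least 130.5-fold lower in H7, against a parental sum of 355 counts.

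Snhg14, the long host transcript of a cluster of small nucleolar RNAs, runs on the same strand from the Snrpn region towards Ube3a, where it is antisense to Ube3a, and is known to silence the paternal Ube3a allele in neurons. It belongs to the list of further imprinted genes that was tested across all genes. It had 2.15, 3.26 and 1.70 CPM in F5, 3.71, 4.67 and 4.46 CPM in G5 and 0, 0.0368 and 0.0787 CPM in H7, against 1.79, 1.82 and 1.49 CPM in the parental libraries. It fell in H7 (adjusted p = 5.08e-05, edgeR quasi-likelihood test with Benjamini-Hochberg adjustment) and rose in G5 by 1.33 on the log2 scale (adjusted p = 0.0107). In F5 the change was 0.48 (adjusted p = 0.292). With 3 counts in H7 against 120 in the parental line, the level in H7 was 44.1-fold lower, with a 95% interval of 14.7 to 217 that covers counting error only.

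Ndn encodes necdin, a growth-suppressing protein of the MAGE family, and lies on the far side of Snrpn from Ube3a. It had 27.5, 22.5 and 27.8 CPM in F5, 30.7, 24.5 and 30.5 CPM in G5 and 20.3, 19.4 and 19.1 CPM in H7, against 29.0, 26.7 and 25.5 CPM in the parental libraries. The H7 libraries lay below all others, and F5 and G5 overlapped the parental range. The H7 mean was 72.3% of the parental mean (log2 fold change −0.47, SE 0.11), and the changes were −0.06 (SE 0.11) in F5 and 0.08 (SE 0.11) in G5.

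Ube3a, which encodes the ubiquitin ligase E6AP, varied least: its highest line mean was 1.36 times its lowest. It had 227, 224 and 216 CPM in F5, 283.5, 288 and 290.3 CPM in G5 and 305, 308 and 296 CPM in H7, against 294, 286.5 and 286.6 CPM in the parental libraries. The F5 libraries lay below the parental ones, G5 overlapped them, and the H7 libraries lay just above them. The log2 fold changes were −0.38 (SE 0.05) in F5, −0.01 (SE 0.05) in G5 and 0.07 (SE 0.05) in H7. Sources used here do not give the strand setting of the counting. Without strand, reads of Ube3a and the antisense Snhg14 cannot be told apart where they overlap. Over all libraries Snhg14 was given 647 counts and 9330162G02Rik, also antisense to Ube3a, 690, against 84231 of Ube3a. These counts do not bound the antisense reads that may have been counted under Ube3a.

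In F5, the 14 further genes tested in the domain or within 2000000 bases of it had a median log2 fold change of −0.49. Of these, 7 fell and none was called higher, beside 7.37% of all genes called lower. The 14 leave out the listed imprinted genes but include other transcripts inside the domain. Among them are Gm44830 and 9330162G02Rik, which overlap Ube3a, and Gm44936 and Gm44937, which overlap Atp10a. The median was −0.15 in G5, with 1 called higher and 2 lower, beside 6.54% and 6.56% of all genes. It was −0.20 in H7, with 0 called higher and 4 lower, beside 9.64% and 9.92% of all genes. Gm38393, A230057D06Rik, A330076H08Rik and Gm9801 lie in the domain and are described again below, so the 2 descriptions are not independent. The Ube3a change in F5 was smaller than the F5 median of the 14 genes. Since these include transcripts that overlap Ube3a and Atp10a, the comparison cannot show how the surrounding region changed. Atp10a, a lipid-transporting ATPase gene next to Ube3a, fell by 0.40 in F5 (adjusted p = 0.00778, edgeR), with 122 to 129.7 CPM against 153 to 179 CPM in the parental libraries. Its changes in G5 (−0.11, adjusted p = 0.393) and H7 (−0.06, adjusted p = 0.634) missed the threshold.

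The remaining genes of the domain were read along the chromosome. Between Atp10a and Peg12, chr7:58656166-62464510 in GRCm38, the table lists 279 genes, of which 22 had at least 10 counts in all. Of these, 16 passed the filter, and in H7 6 of the 16 were at or near 0: Snhg14, Gm38393, Snrpn and the 3 long non-coding RNA genes A230057D06Rik, A330076H08Rik and Gm9801, which were singled out after their values were seen. Gm44829, which lies within Snhg14 on the opposite strand, was not, with 5.50 CPM in H7 and 7.30 CPM in the parental line. Among the genes that did not pass, the pseudogene Gm10297 had 0 counts in F5, 1 in G5 and 0 in H7, against 27 in the parental line. Its parental libraries ranged from 0 to 0.879 CPM. Others that did not pass went another way. In H7, Gm44742 had 9 counts against 8 in the parental line, Gm7367 19 against 13 and B230209E15Rik 12 against 3. Gm44644 and A230006K03Rik had 0 counts in the parental line, 2 each in F5 and 8 each in G5. A230057D06Rik averaged 1.29 CPM in F5, 1.36 CPM in G5 and 0.157 CPM in H7, against 3.58 in the parental line. A330076H08Rik averaged 1.36 CPM in F5, 1.66 CPM in G5 and 0.0781 CPM in H7, against 3.20 in the parental line.

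Gm9801 was low in every clone, with 6 counts in F5, 5 in G5 and 0 in H7, against 152 in the parental line. On the side of Ndn, Mkrn3, a ubiquitin ligase gene that is paternally expressed, averaged 2.43 CPM in F5, 2.14 CPM in G5 and 1.21 CPM in H7, against 2.49 in the parental line. It fell by 1.04 on the log2 scale in H7 (adjusted p = 0.0375, edgeR). That call was lost without the F5 library of passage 9 (adjusted p = 0.0543), the H7 library of passage 7 (0.135) or 8 (0.127), or the parental library of passage 7 (0.0986) or 8 (0.0916). Peg12 held 11.9 CPM in H7 and 14.7 CPM in the parental line (log2 fold change −0.30, adjusted p = 0.458).

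**Figure D2:**
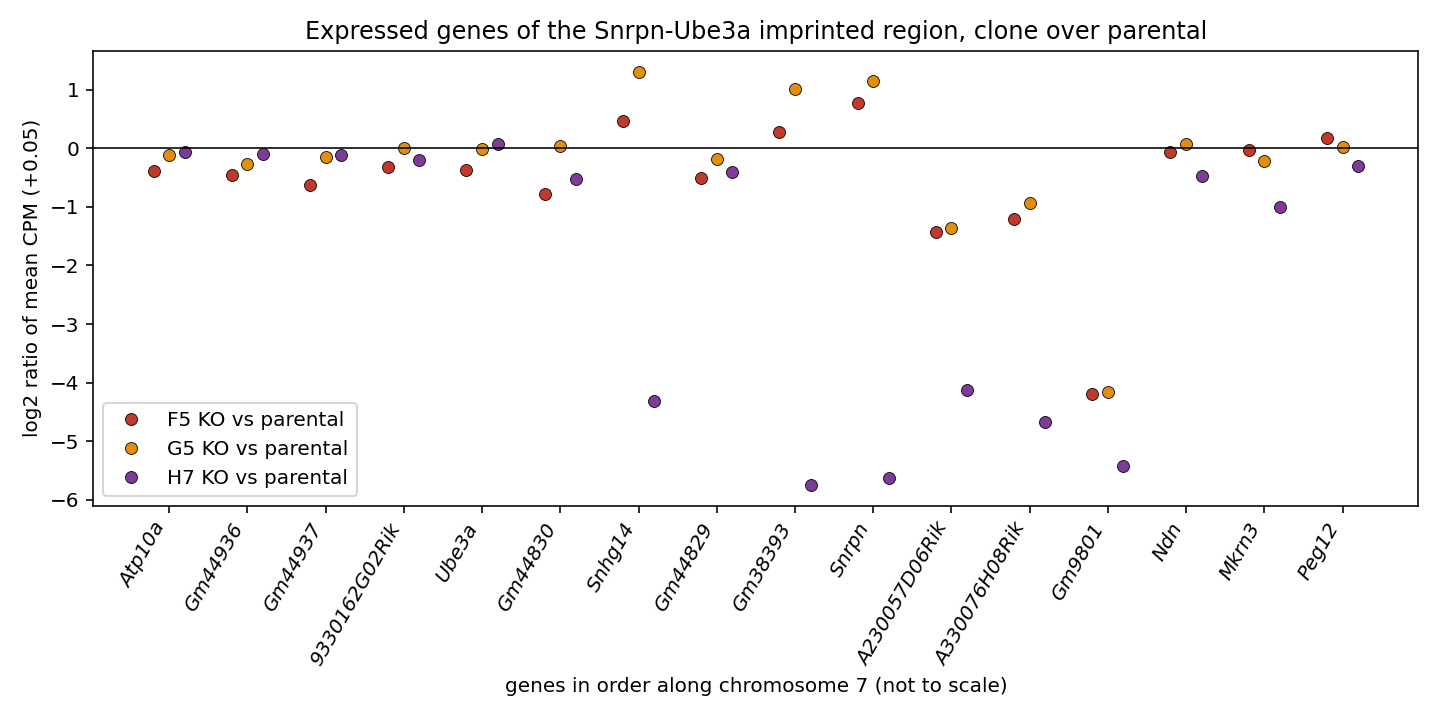
Log2 ratio of mean CPM, clone over parental, for the 16 tested genes of the Snrpn-Ube3a region in their order along chromosome 7, with 0.05 CPM added to both means so that genes at 0 can be drawn. The H7 points fall below −4 for 6 genes between Snhg14 and Gm9801 and lie nearer to 0 at Gm44829 and on both sides, at Ube3a and at Ndn.

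Mest, on chromosome 6, encodes a protein of the α/β-hydrolase family and is a classic paternally expressed gene of the embryonic mesoderm. It had 0 counts in all 9 knockout libraries, against 32, 69 and 27 counts, or 1.43, 2.72 and 1.19 CPM, in the parental libraries. At the limit of 3 counts over the libraries of a clone, it was at least 50.8-fold lower in F5, at least 45.7-fold lower in G5 and at least 47.1-fold lower in H7. Its parental level, 1.78 ± 0.826 CPM (SD, n = 3), was highest at passage 7.

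Copg2, a coat-protein gene that overlaps Mest on the opposite strand, held 55.2 CPM in F5, 56.2 CPM in G5 and 40.8 CPM in H7, against 49.5 CPM in the parental line, and none of these differences passed the test (adjusted p = 0.591, 0.540 and 0.283, edgeR). Copg2 was thus detected in every line. Klf14, a further gene of the domain, had 1 count in all 12 libraries. In H7 the 33 further genes tested within 2000000 bases had a median log2 fold change of −0.27 and 10 of them fell, with none called higher, beside 9.92% of all genes called lower. The median of chromosome 6 in H7 was −0.22 over 782 genes. The median of these 33 genes was 0.08 in F5, with 2 called higher, and 0.11 in G5, with 1 called higher, and none was called lower in either.

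Plagl1, on chromosome 10, encodes a zinc-finger transcription factor that restrains growth. It had 27.7, 29.8 and 26.9 CPM in F5, 41.3, 49.1 and 40.8 CPM in G5 and 68.3, 59.0 and 58.1 CPM in H7, against 52.9, 76.1 and 45.7 CPM in the parental libraries. The F5 libraries lay below all others, and G5 and H7 overlapped the parental range. The log2 fold changes were −1.05 (SE 0.16) in F5, −0.41 (SE 0.16) in G5 and 0.09 (SE 0.16) in H7, and without the parental library of passage 7 they were −0.81, −0.17 and 0.33 in the same order. The 20 further genes tested around Plagl1 had a median of −0.05 in F5.

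Cdkn1c, which encodes the cyclin-dependent kinase inhibitor p57, and Peg10, a gene derived from a retrotransposon, had 0 counts in all 12 libraries, which allows at most 0.00976 CPM over all of them. Neither was detectable at this depth. Of the listed genes of its domain, Slc22a18, Phlda2, Kcnq1 and Ascl2 had 8, 2, 5 and 7 counts in all 12 libraries, and the others passed the filter. Kcnq1ot1, the long non-coding RNA that is known to silence Cdkn1c on the paternal chromosome, held 869 ± 23.5 CPM in F5, 827 ± 12.5 CPM in G5 and 644 ± 17.8 CPM in H7, against 719 ± 15.0 in the parental line (SD, n = 3 each).

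Kcnq1ot1 rose in F5 by 0.27 on the log2 scale (adjusted p = 0.00693, edgeR) and in G5 by 0.20 (adjusted p = 0.0314). The change in H7 was −0.16 (adjusted p = 0.0617). The G5 call was lost without any 1 of the G5 libraries of passages 7 (adjusted p = 0.0745), 8 (0.0841) and 9 (0.0623) or the parental libraries of passages 6 (0.0600) and 8 (0.0601), and with no filter on low counts (0.103).

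Cd81, a tetraspanin gene of the same domain, rose in F5 by 0.33 (adjusted p = 0.00758) and in H7 by 0.26 (adjusted p = 0.0185). The G5 value was 0.18 (adjusted p = 0.0983). All libraries of the 3 clones, at 203 to 236 CPM, lay above the parental ones, at 170.3 to 199.7 CPM. The H7 call was lost without the H7 library of passage 7 (adjusted p = 0.0693) or the parental library of passage 6 (0.0515) or 8 (0.0646). Osbpl5, a lipid-transfer gene, fell by 0.32 in G5 (adjusted p = 0.0169), which was lost without the G5 library of passage 9 (0.0743) or the parental library of passage 8 (0.0548) and on both TPM scales (0.246 and 0.249). All F5 and all H7 libraries lay below the parental ones as well (log2 fold changes −0.20 and −0.20, adjusted p = 0.094 and 0.0933).

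Tssc4 averaged 18.8 to 20.7 CPM over the clones and 21.8 CPM in the parental line, Nap1l4 averaged 51.2 to 60.7 CPM over the clones and 58.6 CPM in the parental line, and neither passed the test in any clone. Tspan32 was near its detection limit, with 0.112 CPM in F5, 0.101 CPM in G5 and 0.612 CPM in H7, against 0.109 CPM in the parental line, and the H7 value missed the threshold (adjusted p = 0.0502).

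Peg10 shares its domain with Asb4, which encodes a subunit of a ubiquitin ligase and is known as maternally expressed. Asb4 had 54.7, 70.0 and 69.0 CPM in F5, 31.5, 45.3 and 50.5 CPM in G5 and 0.716, 0.884 and 0.669 CPM in H7, against 14.9, 34.5 and 20.4 CPM in the parental libraries. It was on the opposite side of the parental line in different clones. It rose in F5 by 1.47 on the log2 scale (SE 0.26, adjusted p = 0.00441, edgeR) and fell by 4.94 in H7 (SE 0.37, adjusted p = 1.12e-05). The G5 value of 0.86 missed the threshold (adjusted p = 0.0528).

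Pon2 and Pon3, paraoxonase genes of that domain, did not pass the test in any clone, with log2 fold changes from −0.45 to 0.31, and Ppp1r9a stayed below 1.07 CPM in every library and did not pass it either. Sgce, which shares its promoter region with Peg10, was at 0 in all libraries.

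Of the further imprinted genes listed, 60 in number, 58 were in the table and 35 passed the filter. This list and that of imprint maintenance genes were chosen with earlier results of these data known. Their shares and p-values may therefore reflect that choice. Of the 58, 12 were at 0 in all libraries. The share of all tested genes called was 14.3% in F5 (6.88% higher, 7.37% lower), 13.1% in G5 (6.54% higher, 6.56% lower) and 19.6% in H7 (9.64% higher, 9.92% lower). Of the 35 genes, 6 rose and 4 fell in F5, 4 rose and 4 fell in G5, and 2 rose and 8 fell in H7 (28.6%, 22.9% and 28.6% called). The median log2 fold change of the 35 was 0.07 in F5, −0.08 in G5 and −0.18 in H7, beside −0.01, −0.01 and −0.02 for all genes.

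In all, 18 of the 35 passed the test in at least 1 clone, and 0 were called in the same direction in all 3, beside 29.6% and 4.68% of all genes. The G5 count of 8 was 5 without the G5 library of passage 8 or the parental library of passage 8, and 3 without the G5 library of passage 9. The H7 count of 10 was 6 without the parental library of passage 8. With the place in the order of passages added to the fit, 13 of the 35 were called in F5, 18 in G5 and 19 in H7. Of all 14704 genes, that fit called 4226 in F5, 3948 in G5 and 4808 in H7. It called 27 of the 35 in at least 1 clone and 3 in the same direction in all 3 (Cd81 higher, Peg13 and Slc38a4 lower). Of all 14704 genes, 7378 and 1546 were called in at least 1 and in the same direction in all 3. From the 6 libraries of a clone and the parental line alone, 4 of the 35 were called in F5, 3 in G5 and 5 in H7. Of all 14704 genes, 764, 569 and 1580 were called there. For 15 of the 35 (42.9%) a difference among the 3 clones was called, beside 17.1% of all genes, and for 9 without the H7 library of passage 9. In the mean of the 3 clones, 1 of the 35 was higher and 8 were lower, beside 8.55% and 10.5% of all genes (19.0% together). This mean averages log2 values, and 3 of the 8 had a higher mean CPM in the clones than in the parental line, so the clones are described singly.

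Sfmbt2, a Polycomb-related gene that is paternally expressed in the extraembryonic tissues of the mouse, had the smallest p of the 35 in the mean of the clones. It had 3.14, 6.28 and 4.59 CPM in F5, 0, 0.136 and 0 CPM in G5 and 18.5, 22.1 and 17.4 CPM in H7, against 12.6, 17.1 and 10.98 CPM in the parental libraries. It fell by 1.53 on the log2 scale in F5 (SE 0.29, adjusted p = 0.00579, edgeR) and in G5 to 3 counts in all. Against 964 counts in the parental line, G5 was 344-fold lower (95% counting interval 117 to 1670, adjusted p = 9.61e-06, edgeR). In H7 the change of 0.51 missed the threshold (adjusted p = 0.234).

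Peg13, a non-coding RNA within Trappc9 that is paternally expressed in brain, had 5.94, 8.91 and 7.33 CPM in F5, 7.99, 10.9 and 9.64 CPM in G5 and 17.3, 18.1 and 17.7 CPM in H7, against 20.8, 28.6 and 21.04 CPM in the parental libraries. It fell by 1.67 in F5 (adjusted p = 0.000210, edgeR) and in G5 by 1.31 (adjusted p = 0.000739), and the H7 change of −0.41 missed the threshold (adjusted p = 0.110). It lies within Trappc9 on the same strand, so part of its reads may come from that gene. Trappc9 changed by 0.082 in F5 (adjusted p = 0.699, edgeR), by −0.075 in G5 (0.733) and by 0.38 in H7 (0.041). The share of Trappc9 reads in the Peg13 values was not tested.

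Slc38a4, an amino acid transporter gene known for imprinted expression in placenta, fell by 0.55 in F5 (adjusted p = 0.00184) and in H7 by 0.62 (adjusted p = 0.000541), with means of 81.0 CPM in F5, 98.6 CPM in G5 and 77.2 CPM in H7, against 118 CPM in the parental line. The G5 change was −0.26 (adjusted p = 0.0629). Herc3, an imprinted gene of chromosome 6 that was picked after its values were seen, fell by 2.89 in H7 (SE 0.26, adjusted p = 4.06e-05), with 0.318, 0.589 and 0.787 CPM in H7 against 4.52, 3.91 and 4.26 CPM in the parental libraries. In F5 and G5 its changes were 0.46 (adjusted p = 0.177) and 0.67 (adjusted p = 0.0606).

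**Figure D3:**
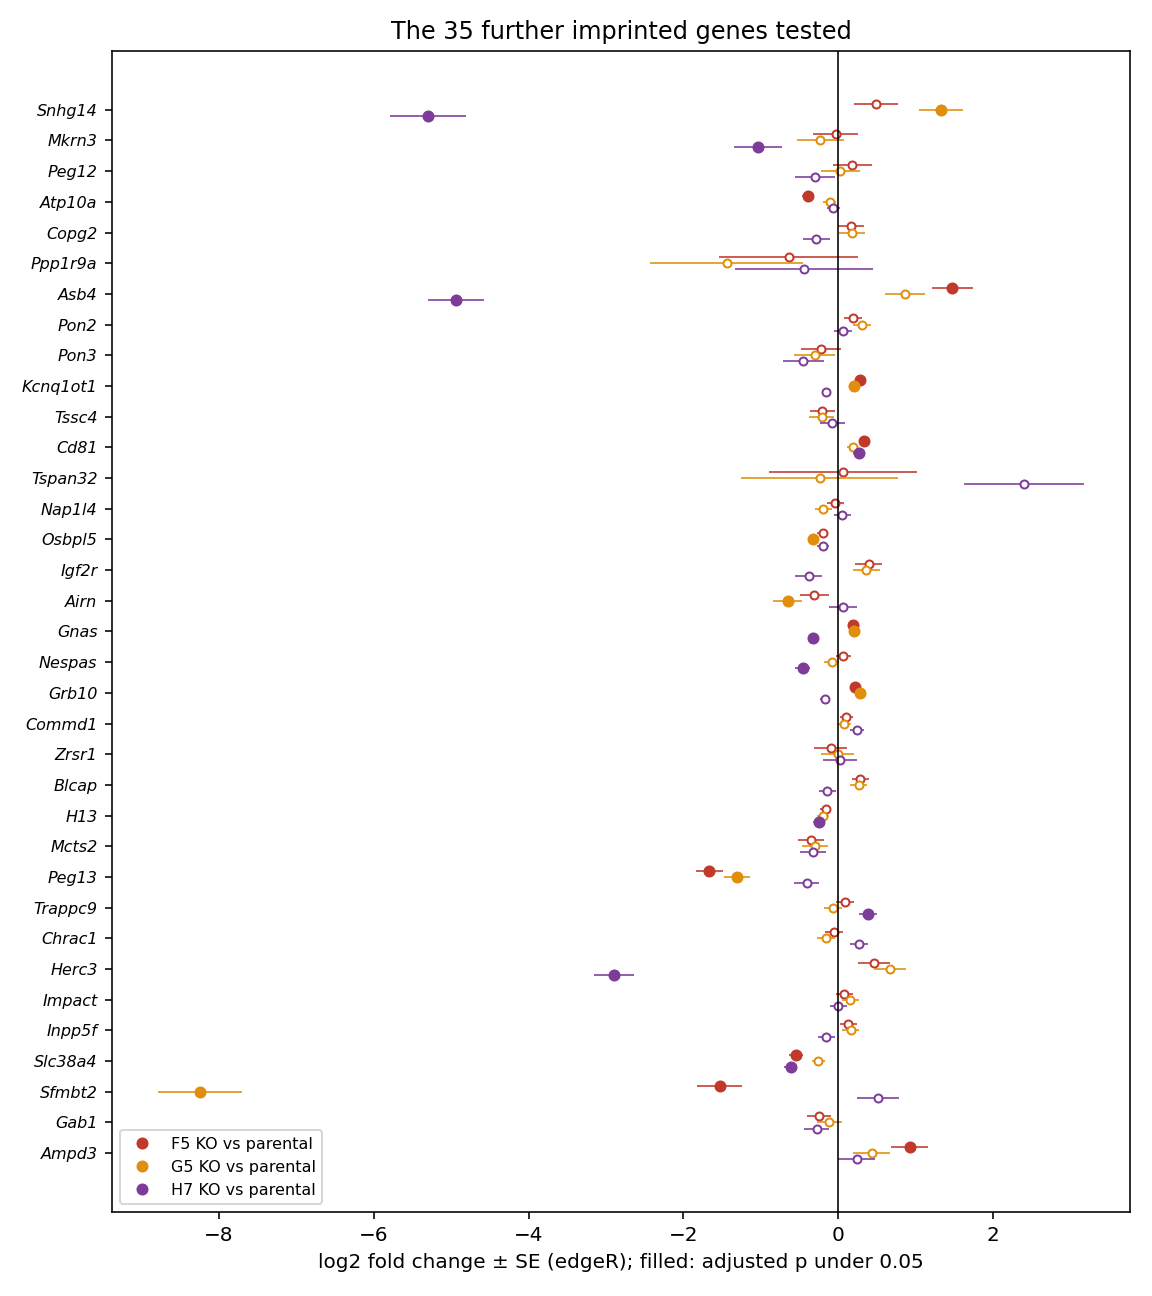
Fitted log2 fold change ± SE of each clone against the parental line for the 35 further imprinted genes that passed the filter, with filled points for an adjusted p under 0.05 in edgeR and open points for the rest. Filled points lie on both sides of 0, the longest for Snhg14, Asb4 and Herc3 in H7 and Sfmbt2 in G5.

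The list of 14 imprint maintenance genes also holds Tet1, Tet2 and Tet3, whose enzymes oxidise methylated cytosine rather than set or keep it. Of the 14 genes, 13 passed the filter, and Dppa3 was at 0 in all libraries. None was called in F5 or G5, where edgeR gave 1 and 0 of them an unadjusted p under 0.05 and where DESeq2 likewise called 0, beside 14.3% and 13.1% of all genes in edgeR. Trim28, the partner of the imprint-binding zinc-finger proteins, held 269 CPM in F5, 297 CPM in G5 and 319 CPM in H7, against 317 CPM in the parental line (adjusted p = 0.0976, 0.545 and 0.966, edgeR).

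Tet3, which encodes an enzyme that oxidises methylated cytosine, was the only gene of this list called in H7, beside 19.6% of all genes. It fell by 0.27 there on the log2 scale (adjusted p = 0.0106, edgeR), with 189, 179 and 181 CPM in H7 against 221, 228 and 213 CPM in the parental libraries. The call was lost without the H7 library of passage 8 (adjusted p = 0.0564). Tet3 and Dnmt3l, a cofactor of the methyltransferases that set imprints in germ cells, were the 2 genes of the list that differed among the clones (adjusted p = 0.00968 and 0.0197), beside 17.1% of all genes. Dnmt3l was lowest in H7, at 2.11 CPM. Zfp57, Zfp445 and Dnmt1 were expressed in all lines, between 30.5 and 258 CPM in a library.

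The passages gave a comparison that the choice of the 10 genes did not use, and here 6 of the 7 that passed the filter were tested, in a fit with line and place in the order of passages. The question was whether levels differed between the middle passage and the outer 2 of each line, or between the third and the first. None of the 6 was called in either contrast, beside 32.1% of all genes called for the middle passage and 1.12% for the third against the first (0.741% higher, 0.374% lower). Both edgeR and DESeq2 gave 3 of them an unadjusted p under 0.05 for the middle passage and 1 for the third against the first, and the number called with DESeq2 was 0.

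Ndn came nearest to the threshold for the middle passage, with a log2 difference of −0.17 (SE 0.06, adjusted p = 0.0648). It was lower in the middle passage in all 4 lines, with 22.5 CPM against a mean of 27.7 CPM at the outer passages in F5, 24.5 against 30.6 in G5, 19.4 against 19.7 in H7 and 26.7 against 27.3 in the parental line. The test passed without the H7 library of passage 8 (adjusted p = 0.0325) and without the parental library of passage 7 (0.0263) or 8 (0.0357). Plagl1 had a difference of 0.24 (SE 0.09, adjusted p = 0.0727), higher in the middle in 3 of 4 lines, which passed without the H7 library of passage 7 (0.0423) or 8 (0.0116).

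Peg3 had a difference of 0.29 for the middle passage (SE 0.12, adjusted p = 0.0905), which passed without the F5 library of passage 8 (0.0409). The third passage was higher than the first in all 4 lines, with 51.5 against 43.6 CPM in F5, 92.1 against 65.5 in G5, 23.4 against 17.3 in H7 and 75.8 against 56.9 in the parental line. That difference of 0.39 (SE 0.14) missed the threshold (adjusted p = 0.224) and passed it without the parental library of passage 7 (0.00173).

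For the other 3 genes the adjusted p for the middle passage was 0.162 for Usp29, 0.473 for Snrpn and 0.861 for Ube3a, and for the third against the first it lay between 0.460 and 0.758 for the 5 genes other than Peg3. Mest had counts in the parental line alone and was not tested over passages. Its level there was 2.72 CPM at the middle passage, against a mean of 1.31 CPM at the outer passages.

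**Figure D4:**
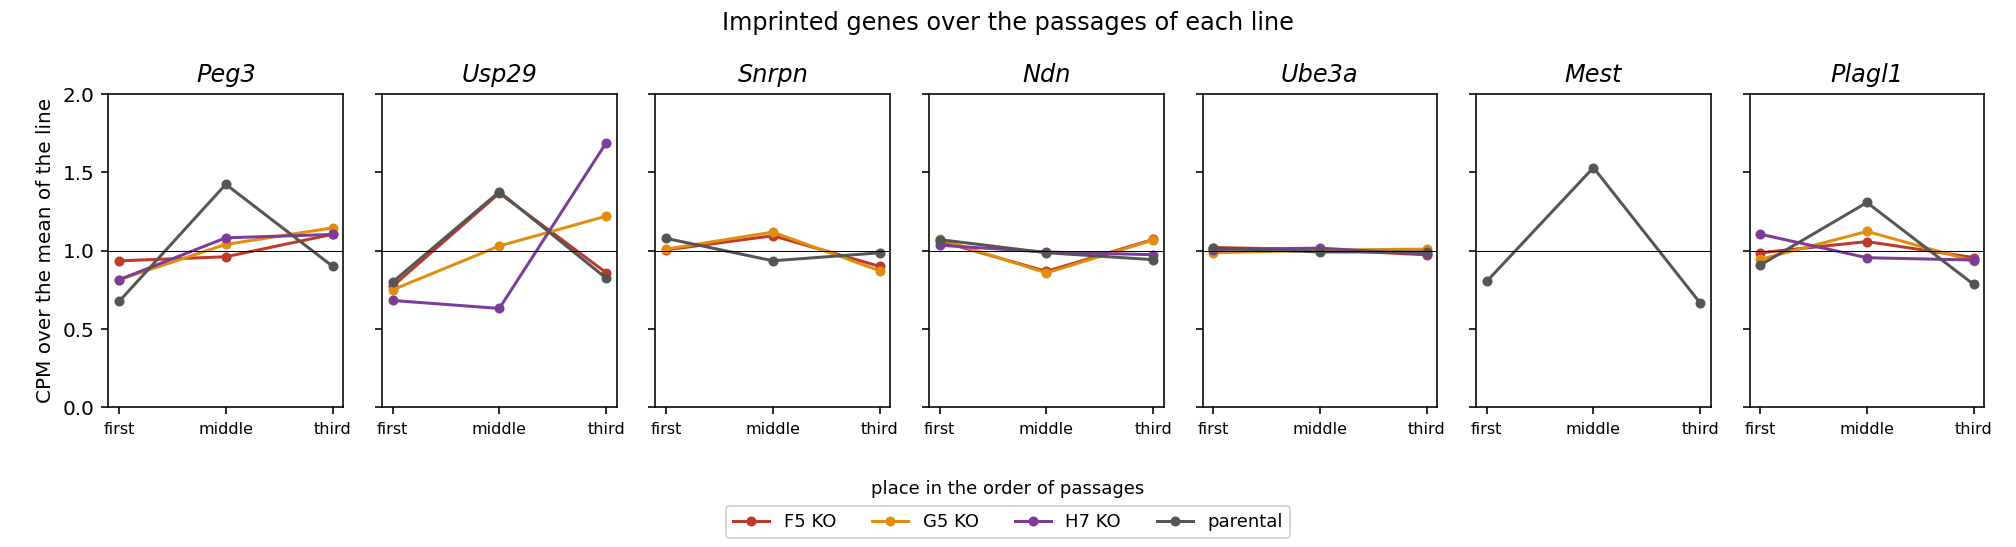
CPM of each of the 7 genes that passed the filter over the mean of its own line, at the first, the middle and the third passage of each line, with 1 line per cell line and none where all libraries were at 0. Peg3 stands higher at the third than at the first passage in all 4 lines, a difference that missed the threshold, and Ube3a stays close to 1.

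Among the 35 further imprinted genes, 12 were higher and 5 lower at the middle passage (48.6%, beside 32.1% of all genes), with a median log2 difference of 0.08 beside 0.02 for all genes. The count was 11 without the F5 library of passage 8. Of the 13 tested genes of imprint maintenance, 4 were higher and 4 lower at the middle passage (61.5%). Of the 35 further imprinted genes, Copg2 and Pon3 were among the higher ones and Peg12, Tssc4 and Nap1l4 among the lower ones. For the third against the first passage edgeR called 0 of the 35, with 7 at an unadjusted p under 0.05, and the number called with DESeq2 was 1.

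For the genes whose line means differed at least 4-fold, the genes with the most similar course over the 12 libraries were sought. The measure was the mean absolute difference of centred log2(CPM + 0.5). Genes with provisional names, such as Gm38393, were left out. Ttc38 (difference 0.16) and Ggt7 (0.19) were nearest to Usp29, Prkaa2 (0.18) and Pik3c2b (0.21) to Snrpn, and Rtn4rl2 (0.09) and Kcnip3 (0.14) to Mest. Prkaa2 averaged 3.41 CPM in F5, 4.65 CPM in G5 and 0.0133 CPM in H7, against 1.40 CPM in the parental line, where H7 held 1 count against 99. Kcnip3 had 0 counts in F5 and G5 and 1 in H7, against 88 in the parental line. None of these 6 genes lies on chromosome 6, 7 or 10. Gm38393, which was left out, lies on chromosome 7 and overlaps Snrpn. It averaged 3.19 CPM in F5, 5.32 CPM in G5 and 0 CPM in H7, against 2.63 CPM in the parental line. The genes named for Snrpn are therefore not the nearest of the whole table.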

How the data were processed

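Ribosome-depleted total RNA of 12 libraries was sequenced in paired ends with a stranded kit, per the labels' protocols. The authors deposited estimated counts and TPM per gene on GRCm38, per the submitters' processing notes for the build. Sources used here do not give the aligner, the counting tool, its strand setting or the annotation release. Of 48795 identifiers, 48349 matched GENCODE M21, which gave coordinates, counted from 1. In the deposited counts, 86.9% of the values above 0.5 were within 0.01 of a whole number, and counts were rounded.

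The 10 genes and the gene lists were chosen with earlier results of these data known. Genes were kept by filterByExpr on the 4 lines, which left 14704. Line differences were fitted with edgeR's quasi-likelihood F-test, TMM factors and all 12 libraries together (8 residual degrees of freedom, biological coefficient of variation 15.5%). Passage contrasts added the place in the order of passages (6 residual degrees of freedom). Benjamini-Hochberg adjustment ran over all tested genes, and genes with an adjusted p under 0.05 were called. An adjusted p without a tool is from this test. Limits for 0 counts are 3 counts over the summed libraries of a line, and ratios to 1 to 3 counts carry exact (Clopper-Pearson) 95% intervals. Both cover counting error only, and the fold limits for 0 counts take the parental count as exact.

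Alternatives were DESeq2, edgeR with relative log expression (RLE) factors, no filter, limma on log2(TPM + 0.1) and log2(TPM + 1), blocks for the passage number or the order of passages, fits of 6 libraries, the subtraction of the chromosome median, and leaving out each library. The code was tested on simulated counts. Named were all 10 genes and their tested domain neighbours, the 4 further imprinted genes with the smallest p in the mean of the clones, the 2 with the smallest p among clones, 2 genes of imprint maintenance by the smallest p in the mean, and the 2 genes nearest to each of the 10 whose line means differed at least 4-fold. Genes with provisional names, such as Gm38393, were left out of the search for the nearest genes. Herc3, Dnmt3l and the non-coding genes around Snrpn were named after their values were seen. Fits used DESeq2 1.42.0, limma 3.58.1 and edgeR 4.0.16 in R 4.3.3, and tables Python 3.11.15.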

Additional observations from a re-analysis of the deposited data

Results flagged for a closer look

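Differences among the clones were called in edgeR for 15 of the 35 further imprinted genes (42.9%), of which 9 are described first, beside 17.1% of all genes. They were called for 2 of 13 genes of imprint maintenance (15.4%), which is not above the share of all genes. The adjusted p was 2.85e-06 for Asb4, 3.79e-06 for Sfmbt2, 1.38e-05 for Snhg14, 1.38e-05 for Herc3, 0.000559 for Kcnq1ot1, 0.000954 for Peg13, 0.0232 for Slc38a4, 0.0251 for Atp10a and 0.0418 for Tspan32. It was 0.00968 for Tet3 and 0.0197 for Dnmt3l. For the rest of the 15 it was 0.000136 for Gnas, 0.00101 for Grb10, 0.00825 for Nespas, 0.0156 for Igf2r, 0.027 for Blcap and 0.0428 for Trappc9. Against the parental line, Gnas rose in F5 and G5 (adjusted p = 0.0453 and 0.0383, edgeR) and fell in H7 (0.00226).

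The calls for Asb4, Sfmbt2, Snhg14, Herc3, Kcnq1ot1 and Peg13 held without each library in turn. The call for Tspan32 rests on levels under 1 CPM and was lost without 8 of the 12 libraries, with an adjusted p of up to 0.187 without the H7 library of passage 8. For Atp10a it was lost without any of the F5 libraries (adjusted p = 0.102, 0.0569 and 0.0834 without passages 7, 8 and 9) or the H7 library of passage 8 (0.0589) or 9 (0.0637). For Slc38a4 it was lost without the G5 library of passage 7 (0.0848) or 9 (0.113) or any of the H7 libraries (0.0670, 0.0547 and 0.0602). For Tet3 it was lost without the H7 library of passage 8 (0.0629) or 9 (0.0585), and for Dnmt3l without any of the H7 libraries (0.0772, 0.0823 and 0.0902).

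For Snrpn and Ube3a, on the CPM scale, all libraries of at least 1 clone lay above the parental libraries and all of another below. For Ube3a the upper gap depended on the scale. In TPM the H7 libraries, at 87.4 to 94.1, overlapped the parental ones, at 85.9 to 92.9. The highest line mean of Snrpn was 5.39 CPM, in G5, with 0 in H7, and for Ube3a the highest line mean was 1.36 times the lowest. These differences were not tested, since the genes were chosen with their line values known.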

How the results depend on the processing

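Of the values for single genes, 1393 comparisons with an alternative stayed on the same side, 93 lost a call, 7 gained one, and 38 values without a test moved by more than the spread. No called value turned its sign. Fold changes near 0 did so for Peg3 and Ube3a in G5, Usp29 and Ndn in F5 and Plagl1 in H7. The 7 gained calls are the passage contrasts of Ndn, Plagl1 and Peg3 given above. Of the counts, 213 stayed within 1.5 times and 51 moved. Mest was not tested over passages, since only the parental line had counts. Depth limits the values of Zim1, Usp29 in H7, Tspan32 and Ppp1r9a, and genes at 0.

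The passage numbers of the labels did not pair the libraries. The correlation of deviations from the line means ranged from −0.526 to 0.501 over 15 pairs with the same number, and 9 were over 0.1. With the passage number as a replicate block, the calls were 2333 for the mean of the clones, 1882 for F5, 1788 for G5 and 2451 for H7, and the further imprinted genes called were 8, 8, 7 and 7 of 35. Same place in the order of passages gave 0.0447 to 0.503 over 18 pairs, and 16 were over 0.1. With that order as a block, the calls were 4908 for the mean of the clones, 4226 for F5, 3948 for G5, 4808 for H7 and 4577 among clones, and the further imprinted genes called were 15 in the mean, 18 in G5, 19 in H7 and 23 among clones; the cause was not tested.

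With the 6 libraries of 2 lines only, the calls were 764 in F5, 569 in G5 and 1580 in H7, and the further imprinted genes 4, 3 and 5, from fewer samples. On log2(TPM + 0.1) and log2(TPM + 1), 4 and 4 further imprinted genes were called in the mean of the clones. The calls for the third against the first passage, 164 in the main test, were 419 by DESeq2, 329 with no filter and 105 and 86 on the TPM scales, and the further imprinted genes 1 and 1 by DESeq2 and with no filter. On log2(TPM + 0.1) the calls in the mean of the clones were 1364 higher and 980 lower (1257 and 1543 in the main test), and in G5 1190 and 605 (961 and 965).

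Leaving out each library in turn gave 2088 to 2730 calls for the mean of the clones, 1227 to 2127 for F5, 1120 to 2046 for G5, 1816 to 2800 for H7, 1578 to 3540 among clones, 3378 to 4817 for the middle passage and 20 to 1366 for the third against the first, where the highest count was without the parental library of passage 7. The further imprinted genes called were 6 to 8, 7 to 11, 3 to 12, 6 to 11, 9 to 19, 11 to 18 and 0 to 4 in that order of comparisons.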
